A study of Mus musculus with 18 samples.

Results

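The type I interferon response was described through 44 listed genes: RNA sensors, the transcription factors that carry the interferon signal, and effector genes that interferon induces. They were taken by symbol from 24391 genes, and all 44 were present in both tables. Of these, 39 had a mean of at least 10 normalized counts in either table (8 of 11 sensors, 4 of 4 transcription factors and 27 of 29 effectors), 36 of them in the knockdown table and 39 in the rescue table. Oas1a, Oas2, Oasl2, Ifit3 and Ifi44 stayed below 10 on average in both tables, with a highest single value of 14.3 normalized counts, in Ifit3, and they were not used further.

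All 18 libraries came from E2-10HA, a hybridoma line that the labels describe as mature mouse T cells, and were made from ribosome-depleted total RNA. The knockdown experiment has 3 libraries with a single pLKO.1 hairpin against L3MBTL3 (L3MBTL3 shRNA) and 3 with a scramble hairpin, all under puromycin. In the rescue experiment every group was depleted of RBPJ and infected with the pMY-Bio IRES blasticidin vector. The vector carried Flag-tagged mouse RBPJ with the substitutions F261A/A284V, Flag-tagged mouse RBPJ WT or no insert (empty vector), with 4 libraries per group. RBPJ is the DNA-binding factor of the Notch pathway, and L3MBTL3 is a chromatin protein described as one of its partners. No label says that replicates were grown or infected separately, and the p-values then cover the spread between these libraries alone, which may be technical.

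A cell senses viral or misplaced RNA through cytosolic helicases, RIG-I (Ddx58), MDA5 (Ifih1) and their relative LGP2 (Dhx58). The first pair signals through MAVS on mitochondria to IRF transcription factors, which switch on type I interferon genes. Secreted interferon binds the receptor made of IFNAR1 and IFNAR2, and a complex that holds STAT2 and IRF9 then binds a short DNA element, the interferon-stimulated response element, in front of the effector genes. Most sensors are themselves interferon-induced, so the sensors and the effectors often move together.

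The core letters of that element, GAAA, any 2 bases and GAAA again, on either strand, were searched in the RefSeq promoter windows (build GRCm38.p6, 250 bases before to 50 bases after each start). Of the 35 listed genes with such a window, 16 held the core (45.71%), against 3.993% of 27025 genes of all kinds. The windows below, each of 30 bases on the strand of its gene, are shown because they hold the core and their genes are described further on. They were picked for the core: the windows of Adar, Samhd1, Parp12 and Dtx3l, which rose in the knockdown, do not hold these letters. Capitals mark the core, read on the opposite strand in Ddx58, and the positions are those of GRCm38.p6, not of the build the authors used.
Ddx58 (chr4:40239804-40239833, minus strand): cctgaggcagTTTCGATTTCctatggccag
Ifih1 (chr2:62646206-62646235, minus strand): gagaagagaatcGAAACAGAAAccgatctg
Eif2ak2 (chr17:78882535-78882564, minus strand): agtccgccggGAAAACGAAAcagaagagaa
Oas3 (chr5:120777715-120777744, minus strand): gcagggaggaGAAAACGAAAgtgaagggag
Irgm1 (chr11:48871425-48871454, minus strand): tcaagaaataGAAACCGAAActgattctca
Mndal (chr1:173880204-173880233, minus strand): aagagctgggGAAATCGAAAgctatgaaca
Isg15 (chr4:156200871-156200900, minus strand): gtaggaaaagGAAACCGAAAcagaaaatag

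The core letters of an RBPJ site, GTGGGAA on either strand, were found in 4 of the same 35 windows (11.43%), those of Eif2ak2, Isg15, Trim25 and Adar, against 7.245% of all genes. The windows of Eif2ak2 and Adar, sensor and effector genes that differed in the knockdown, are given with the core in capitals (in Adar on the opposite strand). A match of letters is a description and no evidence of binding.
Eif2ak2 (chr17:78882558-78882587, minus strand): cccagagcagtGTGGGAAggcggagtccgc
Adar (chr3:89714873-89714902, plus strand): caagtatctagTTCCCACcacgcacacaaa

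Values are normalized counts, that is, gene counts divided by the authors' size factor of the library, and the tables were normalized separately. Knockdown libraries held 4882485 to 6129134 recovered reads each. Replicates 1 and 2 of the rescue held 5923799 to 7921533 reads each, and replicates 3 and 4 held 3553505 to 4239479. T cell markers were present, with 11 of the 12 markers found in the tables averaging at least 10 in every group. B cell markers summed to at most 17.0 per library, and Pax5 and Ebf1 were at 0 in every library. Scramble replicate 3 stood apart in the knockdown, at a chi-square per degree of freedom of 6.22 and 6.38 from the other scramble libraries against 1.25 to 2.68 for the other pairs of a group. In the rescue, replicates 1 and 2 of all groups stood apart from replicates 3 and 4, a divide the labels do not explain. Some pairs within a group differed by less than the sampling noise and were counted as 1 sample: replicates 3 and 4 with F261A/A284V, and replicates 1 and 2 with RBPJ WT and with empty vector. This leaves 3 samples per group, 1 of F261A/A284V and 2 of each other group in replicates 3 and 4, so plain group means mix the vector with the divide.

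Levels ranged widely among the listed genes. Compared per kilobase of exon (GENCODE M21), so that genes of different length can be set side by side, the highest listed gene was Bst2, which tethers budding virus particles at the membrane, at 294 normalized counts per kb over the knockdown libraries and 344 over the rescue libraries. Irf1, an interferon regulatory factor with steady activity in many cells, came next at 242 and 209 per kb. Among the sensors, Znfx1, a helicase that binds double-stranded RNA, was highest at 104 and 123 per kb, and Ifih1 was lowest at 3.88 and 15.1 per kb. Ddx58 stood at 69.1 and 65.7 per kb and Dhx58 at 32.3 and 42.3 per kb.

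Interferon transcripts were at or near the limit of what these libraries can show. Ifna1, Ifna2 and Ifna4 were listed at 0 in every library of both tables. Ifnb1 reached at most 0.961 normalized counts with L3MBTL3 shRNA and 1.23 with scramble. It reached at most 3.08 with F261A/A284V, 2.73 with RBPJ WT and 3.06 with empty vector, which is a handful of reads. The receptor genes were plentiful: Ifnar1 averaged 1091 ± 15.3 normalized counts with L3MBTL3 shRNA and 1111 ± 82.9 with scramble (SD, n = 3 each), and Ifnar2 ranged over 531.5 to 552.4 with L3MBTL3 shRNA and 490.6 to 553.1 with scramble.

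The hairpin's target was first checked in every knockdown library. L3mbtl3 had 394.1, 370.9 and 369.6 normalized counts in L3MBTL3 shRNA replicates 1, 2 and 3, against 466.9, 447.5 and 351.5 in the scramble replicates. Scramble replicate 3 lay below all libraries labelled L3MBTL3 shRNA, so the groups overlapped and the transcript missed the threshold (log2 fold change -0.15, SE 0.107, limma adjusted p = 0.402). The directions given for the knockdown are therefore those of the labels. In the rescue, Rbpj had 728.9, 685.5, 922.4 and 918.7 normalized counts with F261A/A284V, 643.6, 626.7, 802.5 and 818.1 with RBPJ WT, and 317.3, 316.5, 254.6 and 272 with empty vector, so both forms lay above every empty vector library.

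In the libraries labelled L3MBTL3 shRNA, RNA sensors and effectors were mostly higher than in scramble, and the transcription factors differed little. Of 36 listed genes tested, 5 rose and 0 fell (limma, adjusted p under 0.05), against 3.32% of all 11586 genes called, 2.21% higher and 1.11% lower. The risers were Ddx58, Parp12, Adar, Samhd1 and Dtx3l, that is, 1 of 8 sensors, 0 of 4 transcription factors and 4 of 24 effectors. The 0 fallers compare with 21 of the 36 at an unadjusted p under 0.05 in either direction; edgeR called 6 higher and 0 lower (4.07% of all genes), and DESeq2 10 higher and 0 lower (5.65%). The median log2 fold change of the 36 was 0.32, against -0.0067 over all genes tested, and 30 of the 36 lay above 0. The list was chosen with earlier results of these data known. Comparisons of listed genes with all genes, here and in the rescue, are therefore descriptions. In bulk RNA, fewer cells with a transcript and less of it per cell cannot be told apart.

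The knockdown libraries were also paired by replicate number. Their deviations from the group means correlated at 0.240 to 0.539 between same-numbered libraries and at -0.469 to 0.332 between libraries of different numbers. L3MBTL3 shRNA replicate 1 and scramble replicate 2 gave the 0.332, above the 0.240 of the libraries numbered 2. A pairing of replicates 1 and 2 by number is therefore assumed and not shown. With the number as a block (the paired fit), 17 listed genes rose and 2 fell, while 22.2% of all genes were called (13.5% higher and 8.71% lower). By role, 5 of 8 sensors rose and 1 fell, 12 of 24 effectors rose and 1 fell, and 0 of 4 transcription factors were called. Leaving scramble replicate 3 out of the fit without the block gave 10 listed genes higher and 0 lower, against 8.88% of all genes. Leaving out any one of L3MBTL3 shRNA replicates 1, 2 and 3, or scramble replicate 2, gave 0 listed genes, with 0, 0, 5 and 0 of all genes called. In the same fits 14, 14, 23 and 20 listed genes had an unadjusted limma p under 0.05, against 21 with all libraries. Calls at the adjusted threshold were thus lost for nearly all genes and not for the listed genes alone. The paired fit without replicate 1, 2 or 3 called 15, 16 and 21 listed genes higher, against 9.51%, 13.0% and 14.8% of all genes.

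**Figure D1:**
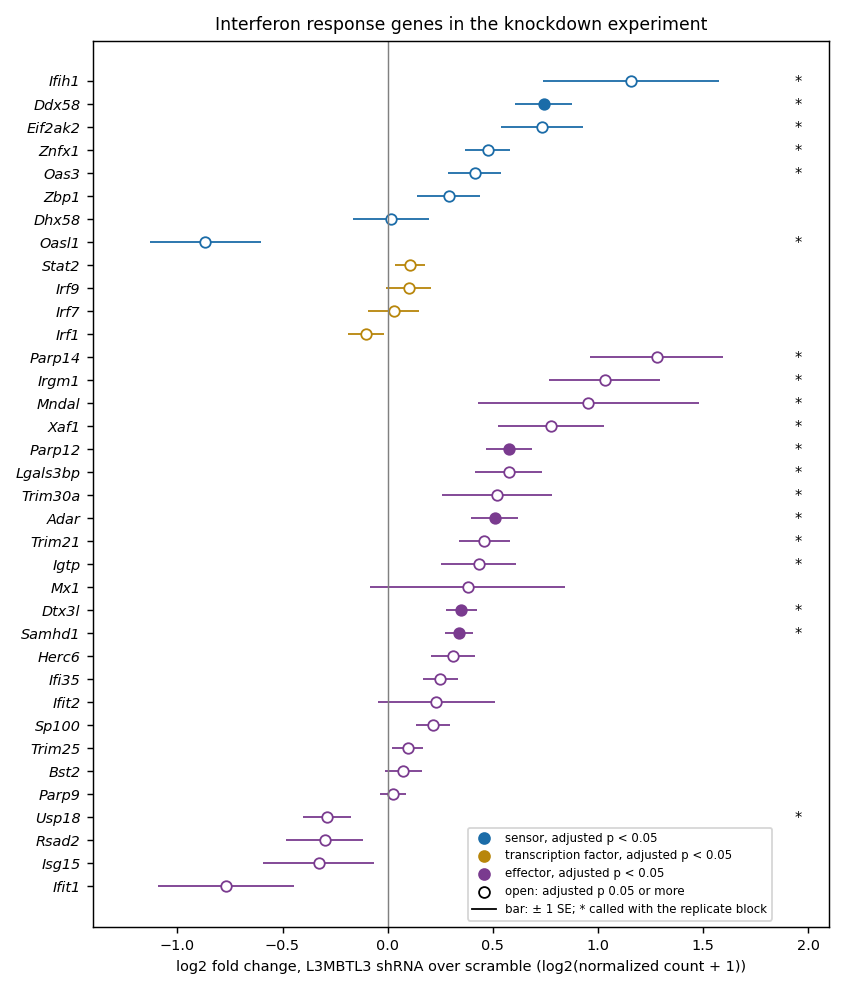
Log2 fold change (x axis, log2(normalized count + 1)) of the 36 listed genes, L3MBTL3 shRNA over scramble, by role, with bars of ± 1 SE; filled points have an adjusted p under 0.05 and asterisks mark calls of the paired fit. Most sensors and effectors lie right of 0, Oasl1 and Ifit1 lie farthest left, and the 4 transcription factors lie near 0.

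Among the RNA helicases, Ddx58 had 631.5, 629 and 561.5 normalized counts in L3MBTL3 shRNA replicates 1, 2 and 3, against 407.1, 410.1 and 285.2 in scramble. Every L3MBTL3 shRNA library lay above every scramble library. Ddx58 averaged 607.3 ± 39.7 with L3MBTL3 shRNA and 367.4 ± 71.3 with scramble (SD, n = 3 each). Its log2 fold change was 0.74 (SE 0.136, limma adjusted p = 0.038; 0.00018 in the paired fit). Ifih1 had 52.86, 42.19 and 33.6 normalized counts with L3MBTL3 shRNA, against 28.07, 24.91 and 8.604 with scramble. Its groups did not overlap either, and it rose only in the paired fit (log2 1.16, adjusted p = 0.137 without the block and 0.0091 with it). Dhx58, which modulates both helicases, had 114.4, 123.6 and 82.55 normalized counts with L3MBTL3 shRNA, against 114.2, 110.2 and 89.73 with scramble. These ranges overlapped widely, at a log2 fold change of 0.02 (SE 0.181).

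Of the other sensors, Eif2ak2, the kinase PKR that halts translation on double-stranded RNA, had 655.5, 570.1 and 489.6 normalized counts with L3MBTL3 shRNA, against 443.5, 359.3 and 249.5 with scramble. Oas3, which makes oligoadenylates on double-stranded RNA, had 645.9, 609.4 and 519.3 with L3MBTL3 shRNA, against 481, 492.5 and 365.1 with scramble. Znfx1 had 1059, 989.1 and 919.6 with L3MBTL3 shRNA, against 784.2, 762.7 and 599.8 with scramble. In each of Eif2ak2, Oas3 and Znfx1 the groups did not overlap, and replicate 3 was the lowest of its group. They rose in the paired fit (log2 0.73, 0.41 and 0.47; adjusted p = 0.00024, 0.0012 and 0.000395) and not without the block (limma adjusted p = 0.072, 0.098 and 0.051).

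Oasl1 moved the other way. This OAS relative, which in mouse holds back translation of the Irf7 message, had 21.15, 22.57 and 14.4 normalized counts with L3MBTL3 shRNA, against 33.69, 45.04 and 29.5 with scramble. All L3MBTL3 shRNA libraries lay below all scramble libraries, and Oasl1 fell in the paired fit (log2 -0.87, adjusted p = 0.020; 0.095 without the block). Zbp1, a sensor of Z-form nucleic acid, averaged 129.6 ± 22.5 with L3MBTL3 shRNA and 105.0 ± 8.14 with scramble (SD, n = 3 each) and was not called in either fit.

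The transcription factors showed small differences, none of them called in either fit. Stat2, the partner of IRF9, had 685.3, 668.2 and 631.6 normalized counts with L3MBTL3 shRNA, against 665.3, 616.1 and 564.2 with scramble. Irf9 had 224.9, 222.7 and 206.4 with L3MBTL3 shRNA, against 225.5, 208.9 and 178.2 with scramble. Irf7, the factor that amplifies interferon production, had 150.9, 166.8 and 136.3 with L3MBTL3 shRNA, against 158.1, 154.3 and 132.7 with scramble. The groups of these 3 genes overlapped, with log2 fold changes between 0.03 and 0.11. Irf1 had 912.2, 919.4 and 940.7 with L3MBTL3 shRNA, against 952.6, 896.9 and 1144 with scramble, and its groups overlapped as well (log2 -0.10, SE 0.0866).

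**Figure D2:**
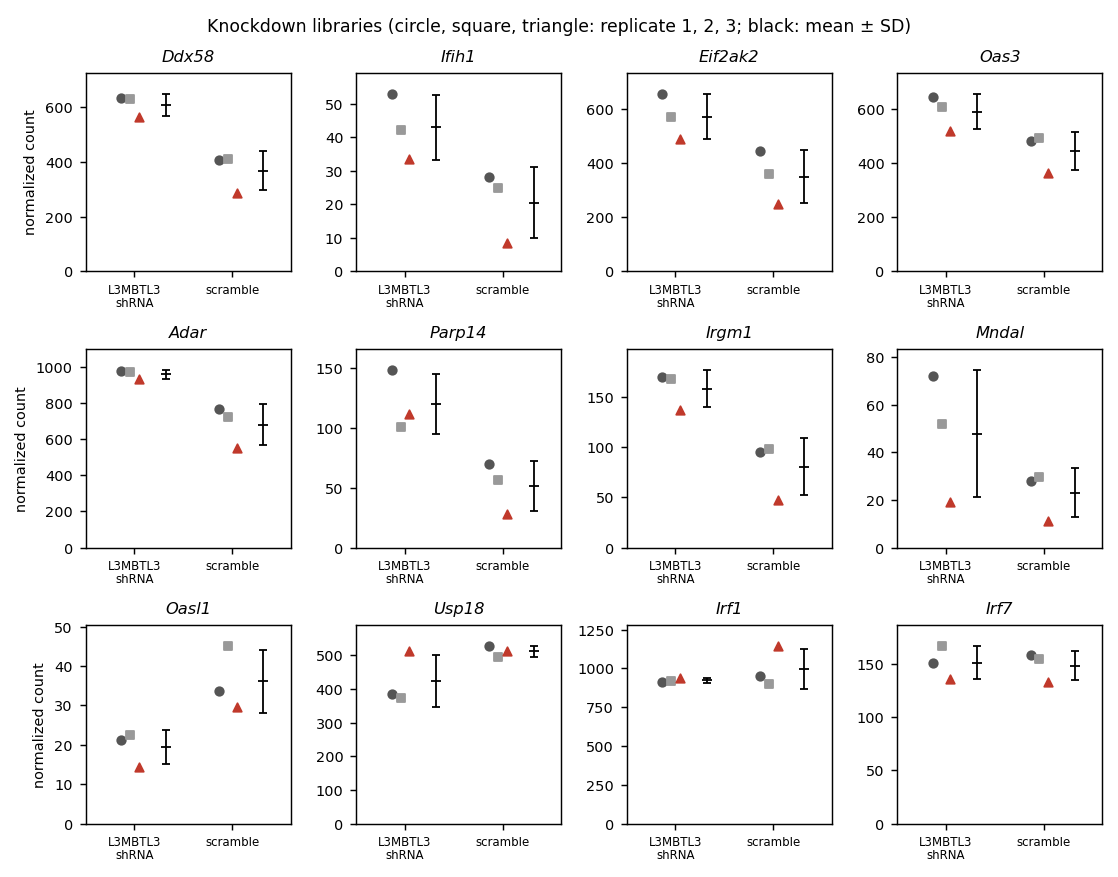
Normalized counts (y axis) of 12 listed genes in each knockdown library, L3MBTL3 shRNA left and scramble right, with replicates 1, 2 and 3 as circle, square and triangle and the mean ± SD in black. Ddx58, Ifih1, Eif2ak2, Oas3, Adar, Parp14 and Irgm1 are higher in every L3MBTL3 shRNA library, Oasl1 is lower, and replicate 3 of scramble is the lowest scramble library in most of them.

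Of the effectors, 4 rose without the block. Adar, which edits double-stranded RNA and so keeps self RNA from MDA5, had 976.6, 971.4 and 933 normalized counts with L3MBTL3 shRNA, against 765.4, 724.4 and 554.3 with scramble (log2 0.51, SE 0.111, limma adjusted p = 0.049). Samhd1, which degrades nucleotide precursors of viral DNA synthesis, had 1278, 1173 and 1248 with L3MBTL3 shRNA, against 993.8, 902.6 and 1032 with scramble (log2 0.34, adjusted p = 0.044). In Adar and Samhd1 the groups were separate. Parp12, a mono-ADP-ribosyltransferase, had 312.4, 299.3 and 272.6 with L3MBTL3 shRNA, against 222.7, 196.4 and 174.5 with scramble (log2 0.58, adjusted p = 0.041). Dtx3l, a ubiquitin ligase, had 773.7, 733 and 778.5 with L3MBTL3 shRNA, against 663.5, 580.7 and 553.1 with scramble (log2 0.35, adjusted p = 0.049). Both rose, also without overlap. Parp9, the partner protein of Dtx3l, whose gene overlaps Dtx3l on the opposite strand, averaged 610.8 ± 28.2 with L3MBTL3 shRNA and 599.7 ± 29.7 with scramble and was not called (log2 0.03). The sources used here do not say whether counting used the strand, so reads over the shared stretch may be assigned to either.

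Parp14 had the largest difference of the listed genes. This macro-domain ADP-ribosyltransferase had 148, 100.1 and 111.3 normalized counts with L3MBTL3 shRNA, against 69.25, 56.53 and 28.27 with scramble, a log2 fold change of 1.28 (SE 0.317; limma adjusted p = 0.063, and 0.0014 in the paired fit). Irgm1, a GTPase that acts on membranes around intracellular pathogens, had 170.1, 168.8 and 137.3 with L3MBTL3 shRNA, against 95.45, 98.69 and 47.94 with scramble (log2 1.03; adjusted p = 0.068 and 0.0012). Igtp, another GTPase of that family, had 174.9, 178.6 and 130.5 with L3MBTL3 shRNA, against 127.3, 137 and 94.64 with scramble. Parp14 and Irgm1 had no overlap between groups, while Igtp replicate 3 with L3MBTL3 shRNA lay among the scramble values. Igtp rose in the paired fit (log2 0.43, adjusted p = 0.020), and its exons overlap those of the family member Irgm2 on the same strand.

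Of the remaining effectors called, Lgals3bp, a secreted galectin-binding glycoprotein, had 487.3, 442.5 and 471.3 normalized counts with L3MBTL3 shRNA, against 386.5, 335.4 and 236 with scramble. Xaf1, a pro-apoptotic interferon-induced protein, had 88.43, 101.1 and 75.83 with L3MBTL3 shRNA, against 57.08, 67.07 and 34.42 with scramble. Trim21, a cytosolic antibody receptor and ubiquitin ligase, had 242.2, 233.5 and 197.7 with L3MBTL3 shRNA, against 184.3, 155.2 and 150 with scramble. Lgals3bp, Xaf1 and Trim21 showed no overlap and rose in the paired fit (log2 0.58, 0.77 and 0.46; adjusted p = 0.0034, 0.0086 and 0.0078). Trim30a had 345.1, 321.9 and 243.8 with L3MBTL3 shRNA, against 249.8, 276 and 132.7 with scramble. Mndal, a mouse HIN-domain protein, had 72.09, 52.01 and 19.2 with L3MBTL3 shRNA, against 28.07, 29.7 and 11.06 with scramble. Both overlapped between groups through replicate 3 and were higher in each same-numbered pair (paired fit, log2 0.52 and 0.95; adjusted p = 0.0078 and 0.012). Mndal shares exons with Ifi203, and Trim30a has near-identical relatives, so the split of their reads is uncertain.

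Isg15 and Usp18 were not among the genes that rose. Usp18, which removes ISG15 and dampens the interferon receptor, had 384.5, 372.9 and 512.6 normalized counts with L3MBTL3 shRNA, against 526.8, 495.4 and 513.8 with scramble. L3MBTL3 shRNA replicate 3 lay among the scramble values, and Usp18 fell in the paired fit (log2 -0.29, adjusted p = 0.029; 0.167 without the block). Isg15 had 31.72, 26.49 and 28.8 with L3MBTL3 shRNA, against 37.43, 25.87 and 50.4 with scramble, was not called and overlapped between the groups. The other 10 effectors tested in the knockdown were called in neither fit, with log2 fold changes between -0.77 (Ifit1) and 0.38 (Mx1).

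Without a test, the groups of 17 of the 36 listed genes did not overlap with L3MBTL3 shRNA above scramble, and those of 2, Oasl1 and Ifit1, did not overlap with L3MBTL3 shRNA below. Over all genes tested the share without overlap was 35.2%, of which 18.1% were higher and 17.1% lower. The sum of 12 myeloid and dendritic markers ran the other way, at 255.67 to 327.74 with L3MBTL3 shRNA and 378.05 to 412.98 with scramble. Only 2 of the 12, Cd68 and Fcgr3, averaged at least 10 in each group. Cd68 made up most of the sum, at a mean of 264.3 with L3MBTL3 shRNA and 342.1 with scramble. Fcgr3 averaged 18.37 and 34.35. Cd68 and Fcgr3 both fell in the paired fit (log2 -0.38 and -0.84, limma adjusted p = 0.0078 and 0.040), where 8.71% of all genes were lower. Cd14, Cd209a and Siglech were at 0 in all knockdown libraries, and the part of myeloid or dendritic cells in the result was not tested.

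Of the 17 listed genes that rose in the paired fit, 16 had a promoter window and 9 of these held the response element core, among them the windows of Ddx58, Ifih1, Eif2ak2, Oas3, Irgm1 and Mndal shown above. Of the other 19 genes tested, 14 had a window and 5 held the core, including Isg15, Ifit1 and Rsad2, which were not called. The RBPJ core stood in 2 of 16 and in 2 of 14 windows of the same sets.

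Other genes of the pathway were read from further lists of pathway genes. Of 25 tested genes that act upstream, from receptors to signalling adaptors, 1 rose without the block, Ticam1, the adaptor TRIF of Toll-like receptor signalling (log2 0.36, limma adjusted p = 0.049), and 0 fell, against 3.32% of all genes called. In the paired fit 8 rose and 1 fell, against 13.5% of all genes higher and 8.71% lower. Mavs averaged 692.2 ± 28.6 normalized counts with L3MBTL3 shRNA and 562.8 ± 79.9 with scramble (log2 0.31, paired adjusted p = 0.011). Irf3, which MAVS signalling activates, averaged 432.3 ± 37.8 with L3MBTL3 shRNA and 370.4 ± 65.6 with scramble (log2 0.23, paired adjusted p = 0.039; SD, n = 3 each).

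Of 50 tested genes on a list of other interferon-induced genes, 2 rose and 1 fell (Tor3a) without the block, against 3.32% of all genes called. In the paired fit 17 rose and 2 fell, against 13.5% higher and 8.71% lower. Ube2l6, the conjugating enzyme for ISG15, had 45.18, 44.16 and 55.67 normalized counts with L3MBTL3 shRNA, against 16.84, 19.16 and 20.9 with scramble (log2 1.30, limma adjusted p = 0.033). Slfn5, of the Schlafen family, had 405.6, 347.4 and 356.1 with L3MBTL3 shRNA, against 255.5, 215.6 and 201.6 with scramble (log2 0.72, adjusted p = 0.031). In both genes every L3MBTL3 shRNA library lay above all scramble libraries. Of 14 tested negative regulators, 0 were called without the block, and 1 rose and 1 fell in the paired fit, a share below the 22.2% of all genes called.

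In the rescue experiment, Ifih1, Mndal, Parp14 and Xaf1 were lower with RBPJ WT than with empty vector, and Ifih1, Mndal and Parp14 were higher with F261A/A284V than with RBPJ WT, once the divide between replicates was taken into account. The comparisons share libraries and are not independent of each other. In the fit without a block, RBPJ WT against empty vector gave 0 calls among the 39 listed genes (limma, with 3 at an unadjusted p under 0.05; edgeR and DESeq2 0), while 0.248% of all 11691 genes were called (edgeR 0.240%, DESeq2 0.513%). Of all genes, 4 were higher and 25 lower, and 9 and 26 with quantile scaling. With the replicate number as a block, 0 rose and 3 fell, Ifih1, Mndal and Parp14, against 2.23% of all genes. In the fit to the merged samples with the divide as a term, 0 rose and 4 fell, with Xaf1 added, against 1.52% of all genes (0.667% higher and 0.855% lower). The 4 fallers were 1 of 8 sensors and 3 of 27 effectors. Replicates 1 and 2 by themselves gave 1 faller (Ifih1), against 1.00% of all genes, and replicates 3 and 4 by themselves gave 3, against 1.26%. The fits with the block and those to one side enter the near-identical pairs as separate libraries, so their p-values are too small. The median log2 fold change of the 39 was -0.078, against -0.0080 over all genes.

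F261A/A284V against RBPJ WT also gave 0 calls among the 39 without a block (6 at an unadjusted p under 0.05; edgeR and DESeq2 0), with 0.316% of all genes called (edgeR 0.248%, DESeq2 0.667%). With the block, 7 rose (Ddx58, Ifih1, Isg15, Lgals3bp, Mndal, Parp14 and Rtp4) and 2 fell (Dhx58 and Usp18), against 4.74% of all genes (2.51% higher and 2.23% lower). In the merged samples with the divide as a term, 3 rose (Ifih1, Mndal and Parp14) and 1 fell (Usp18), against 1.96% (1.08% higher and 0.881% lower). Replicates 1 and 2 by themselves gave 2 higher and 0 lower, against 1.63% of all genes. Replicates 3 and 4 by themselves gave 7 higher and 1 lower, against 7.05%. F261A/A284V against empty vector gave 0 calls without a block (1 at an unadjusted p under 0.05; edgeR and DESeq2 0), 0 with it and 0 in the merged samples, while 0.0171%, 0.650% and 0.0941% of all genes were called. EdgeR called 0.0171% and DESeq2 0.0599% of all genes there, and the 0.0171% of limma were 2 higher and 0 lower, or 2 and 1 with quantile scaling. With the divide as the only added term on all libraries, Dhx58 alone fell (log2 -0.43), against 0.693% of all genes.

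**Figure D3:**
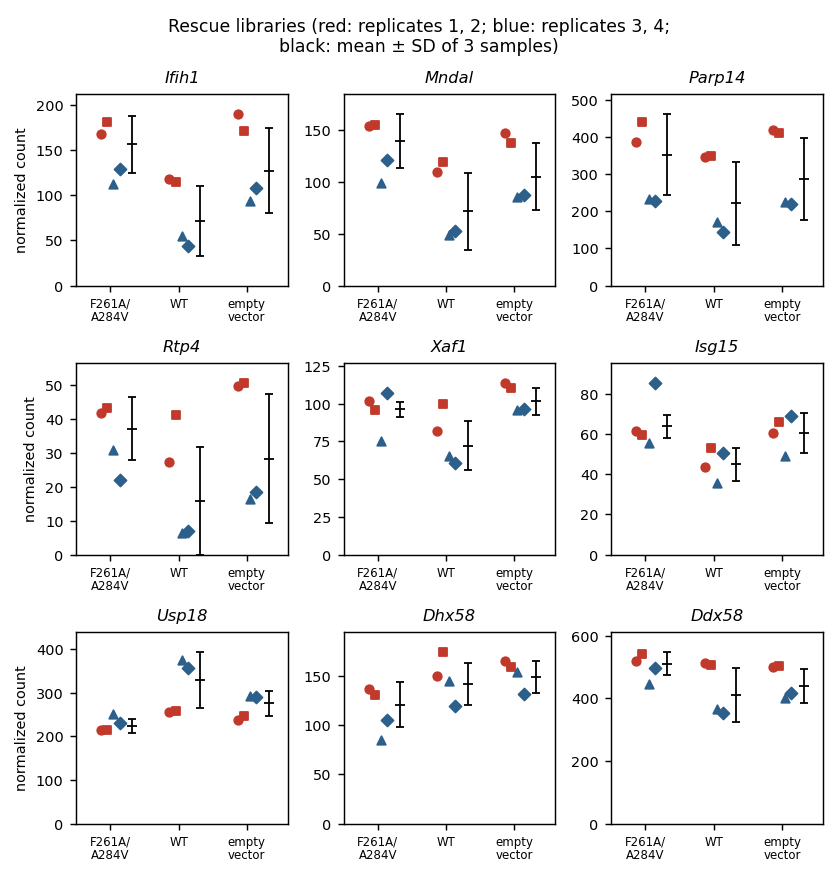
Normalized counts (y axis) of 9 listed genes in each rescue library, with F261A/A284V left, RBPJ WT in the middle and empty vector right; red points are replicates 1 and 2, blue points replicates 3 and 4, and black bars the mean ± SD of 3 samples, which fall unequally on the sides of the divide. In Ifih1, Mndal and Parp14 the RBPJ WT points lie lowest within each colour, and red points lie above blue ones within each group.

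Ifih1 had 167.3, 181.4, 112.4 and 129.4 normalized counts in F261A/A284V replicates 1 to 4, 117.4, 114.1, 54.77 and 43.57 in RBPJ WT, and 189.5, 171.2, 93.09 and 108.5 in empty vector. On each side of the divide the RBPJ WT libraries lay below both other groups, and F261A/A284V overlapped with or lay just above empty vector. In the merged samples Ifih1 fell with RBPJ WT against empty vector (log2 -0.90, SE 0.140, limma adjusted p = 0.00076) and rose with F261A/A284V against RBPJ WT (log2 0.94, SE 0.146, adjusted p = 0.00054). The same differences were -0.63 and 0.59 within replicates 1 and 2, and -1.03 and 1.29 within replicates 3 and 4.

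Mndal had 153.1, 154.7, 98.55 and 120.5 normalized counts with F261A/A284V, 109.2, 119.1, 48.4 and 52.01 with RBPJ WT, and 146.9, 137.1, 84.88 and 87.11 with empty vector. On each side RBPJ WT was lowest and F261A/A284V highest, without overlap. Mndal fell with RBPJ WT against empty vector (merged samples, log2 -0.61, adjusted p = 0.017) and rose with F261A/A284V against RBPJ WT (log2 0.78, adjusted p = 0.0024). Parp14 had 386.2, 440.1, 234.1 and 226.4 with F261A/A284V, 347.4, 348.5, 172 and 143.4 with RBPJ WT, and 418.3, 412, 225.9 and 220.1 with empty vector. RBPJ WT was again lowest on each side, while F261A/A284V and empty vector lay close together. Parp14 fell with RBPJ WT against empty vector (log2 -0.42, adjusted p = 0.011) and rose with F261A/A284V against RBPJ WT (log2 0.41, adjusted p = 0.017).

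Xaf1 had 101.5, 95.75, 75.45 and 107.3 normalized counts with F261A/A284V, 81.9, 99.48, 64.96 and 60.44 with RBPJ WT, and 113.4, 110.5, 95.83 and 96.29 with empty vector. RBPJ WT lay below empty vector on each side, and F261A/A284V overlapped with RBPJ WT among replicates 1 and 2. Xaf1 fell with RBPJ WT against empty vector in the merged samples (log2 -0.51, adjusted p = 0.048) and missed the threshold with the block (adjusted p = 0.052). Against RBPJ WT, F261A/A284V was at log2 0.34 (SE 0.132, adjusted p = 0.294).

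Usp18 had the opposite order. It had 214.5, 213.7, 251 and 230.8 normalized counts with F261A/A284V, 254.6, 257.9, 374.5 and 355.6 with RBPJ WT, and 236.7, 247.6, 293 and 290.4 with empty vector. On each side RBPJ WT was highest and F261A/A284V lowest, without overlap. Usp18 fell with F261A/A284V against RBPJ WT (merged samples, log2 -0.44, adjusted p = 0.0036), whereas RBPJ WT against empty vector missed the threshold (log2 0.24, adjusted p = 0.181). Dhx58 had 137, 131.3, 84.69 and 105.8 with F261A/A284V, 150.2, 174.3, 145.2 and 119.5 with RBPJ WT, and 165.9, 158.9, 154.7 and 131.4 with empty vector. F261A/A284V was lowest on each side. Dhx58 fell with F261A/A284V against RBPJ WT with the block (log2 -0.37, adjusted p = 0.043) and missed the threshold in the merged samples (adjusted p = 0.184).

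Ddx58 had 519.7, 540.9, 445 and 495.4 normalized counts with F261A/A284V, 513.3, 506.3, 365.6 and 354.2 with RBPJ WT, and 498.9, 502.8, 401.1 and 415.7 with empty vector. F261A/A284V was above both other groups on each side, by little in replicates 1 and 2. Against RBPJ WT, Ddx58 rose with the block (log2 0.22, adjusted p = 0.035). The log2 difference was 0.06 within replicates 1 and 2 and 0.38 within replicates 3 and 4. Whether the sides differ was not tested.

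Rtp4, a Golgi chaperone that interferon induces, had 41.83, 43.12, 30.8 and 22.05 normalized counts with F261A/A284V, 27.3, 41.19, 6.369 and 7.028 with RBPJ WT, and 49.83, 50.48, 16.43 and 18.34 with empty vector. RBPJ WT was lowest on each side. Rtp4 rose with F261A/A284V against RBPJ WT with the block (log2 1.07, adjusted p = 0.015) and missed the threshold in the merged samples (adjusted p = 0.060). Isg15 had 61.41, 59.61, 55.44 and 85.26 with F261A/A284V, 43.68, 53.23, 35.67 and 50.6 with RBPJ WT, and 60.32, 66.17, 49.28 and 68.78 with empty vector. Isg15 rose with F261A/A284V against RBPJ WT with the block (log2 0.50, adjusted p = 0.028), and the merged samples gave an adjusted p of 0.245. Lgals3bp had 460.1, 427.4, 491.2 and 479.2 with F261A/A284V, 411.6, 423.9, 379.6 and 345.8 with RBPJ WT, and 433.4, 416.8, 424.4 and 414.2 with empty vector. It rose with F261A/A284V against RBPJ WT with the block (log2 0.25, adjusted p = 0.016) and gave an adjusted p of 0.089 in the merged samples.

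Several genes that had risen in the knockdown were not called in the rescue fits to all replicates. Adar had 768.9, 817.4, 943.9 and 821.7 normalized counts with F261A/A284V, 791.7, 795.2, 752.8 and 708.4 with RBPJ WT, and 812.3, 830.9, 829.6 and 727.5 with empty vector. Eif2ak2 had 631.8, 629, 511.2 and 483.6 with F261A/A284V, 657.9, 647.6, 481.5 and 517.3 with RBPJ WT, and 641.2, 616.7, 509.3 and 534.9 with empty vector. Oas3 had 732.4, 753.9, 742.2 and 780.6 with F261A/A284V, 755.5, 768, 687.8 and 657.8 with RBPJ WT, and 777.6, 774.9, 672.2 and 641.9 with empty vector. None of these was called in the fits with or without the block or in the merged samples. Irgm1 ranged over 177.1 to 197.6 with F261A/A284V, 142 to 188.8 with RBPJ WT and 139.1 to 192.8 with empty vector. Samhd1 ranged over 924.5 to 1219 with F261A/A284V, 857.3 to 1162 with RBPJ WT and 917.5 to 1256 with empty vector. These ranges span the divide, and on each side of it Samhd1 was lowest with RBPJ WT, without overlap with the other groups. Parp12, Dtx3l, Znfx1, Trim21, Trim30a and Igtp, and Oasl1, which fell in the knockdown by the paired fit, were likewise not called in any of these 3 fits, with merged log2 fold changes of F261A/A284V against RBPJ WT between -0.05 and 0.22.

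The transcription factors were called in none of the rescue comparisons, with or without the block or in the merged samples. Stat2 had 640.7, 654.4, 677.5 and 664.4 normalized counts with F261A/A284V, 640.2, 605.8, 699.3 and 624.1 with RBPJ WT, and 676.6, 669.2, 673.6 and 677.1 with empty vector. Irf9 had 248.3, 230.2, 247.9 and 205.8 with F261A/A284V, 240.2, 239.5, 186 and 203.8 with RBPJ WT, and 268.1, 262.6, 223.1 and 227.7 with empty vector. Irf7 had 147.7, 171.8, 160.1 and 176.4 with F261A/A284V, 161.8, 173.6, 138.8 and 105.4 with RBPJ WT, and 175.7, 185.5, 142.4 and 143.7 with empty vector. On each side of the divide RBPJ WT lay below empty vector in Irf7 and Irf9, by less than either test called. Irf1 had 736, 658.2, 1019 and 1003 with F261A/A284V, 668.9, 662.8, 1010 and 986.7 with RBPJ WT, and 652.3, 672.6, 958.3 and 967.4 with empty vector, so its values differed by side and hardly by group.

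Without a test, RBPJ WT against empty vector gave 10 listed genes lower and 1 higher (Usp18) without overlap on both sides of the divide, against 17.6% of all genes (7.91% higher and 9.73% lower). F261A/A284V against RBPJ WT gave 10 higher and 2 lower, against 14.5% of all genes (7.08% higher and 7.40% lower). F261A/A284V against empty vector gave 2 higher (Ddx58 and Mndal) and 2 lower (Dhx58 and Usp18), against 10.0% of all genes (5.00% higher and 5.02% lower). Replicates 1 and 2 with RBPJ WT and with empty vector, and replicates 3 and 4 with F261A/A284V, are 1 sample each. A lack of overlap on these sides, also in the single genes above, thus rests on fewer samples than libraries. Myeloid and dendritic markers summed to 275.88 to 314.13 with F261A/A284V, 235.47 to 266.77 with RBPJ WT and 291.6 to 313.31 with empty vector, so the sum was lowest with RBPJ WT. Of these 12 markers 4 averaged at least 10 in each group and Cd209a was at 0 in all groups. Of the 4 tested, only Itgam was called with RBPJ WT against empty vector in the merged samples (log2 -1.69, limma adjusted p = 0.00041). All genes were called there at 1.52%. The part of these markers in the result was not tested. Of the lists of pathway genes, 25 upstream genes gave 0 calls in the merged samples in all 3 comparisons. Of 54 other interferon-induced genes, 1 rose (Ms4a6b) and 1 fell (Ifitm3, log2 -0.68, adjusted p = 0.029) with RBPJ WT against empty vector in the merged samples, against 1.52% of all genes, and 0 were called in the other comparisons. Of 13 negative regulators, 2 rose with F261A/A284V against RBPJ WT in the merged samples, where 1.96% of all genes were called: Ptpn1, a phosphatase that acts on JAK kinases (log2 0.23, adjusted p = 0.0498), and Tnfaip3, the ubiquitin editor A20 (log2 0.27, adjusted p = 0.022).

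Across the divide of the rescue, replicates 1 and 2 of all groups lay above replicates 3 and 4 without overlap in 14 of 39 genes and below them in 4 (Samhd1, Ifi35, Irf1 and Bst2). Over all genes tested, 47.5% had no overlap (21.3% higher and 26.2% lower). The listed genes were near that share in both directions together, but a larger part of them was higher and a smaller part lower. The listed genes had a median log2 difference of 0.29, replicates 1 and 2 minus replicates 3 and 4, against 0.023 over all genes, and 33 of 39 lay above 0. By role, 4 of 8 sensors were higher without overlap, as were 10 of 27 effectors with 3 lower, and 1 of 4 transcription factors was lower. Recovered reads were deeper in replicates 1 and 2, and the part of depth in this difference was not tested.

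Cmpk2, a nucleotide kinase whose gene neighbours Rsad2, had 32.04 and 54.53 normalized counts in F261A/A284V replicates 1 and 2, 42.32 and 57.66 in RBPJ WT and 49.83 and 54.57 in empty vector. In replicates 3 and 4 it had 10.78 and 13.23 with F261A/A284V, 14.01 and 15.46 with RBPJ WT and 15.06 and 15.28 with empty vector. The sides did not overlap, and the mean log2 difference of 1.71 was the largest of the listed genes. Rtp4 came next at 1.44 and Parp14 at 0.96. Ifit2, which binds RNA and blocks translation, ranged over 109.5 to 164.9 in replicates 1 and 2 and over 59.6 to 99.96 in replicates 3 and 4 (log2 difference 0.88). In the other direction, Bst2 ranged over 232.1 to 276.8 in replicates 1 and 2 and over 354.1 to 406.5 in replicates 3 and 4 (-0.57), and Irf1 over 652.3 to 736 and over 958.3 to 1019 (-0.55).

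**Figure D4:**
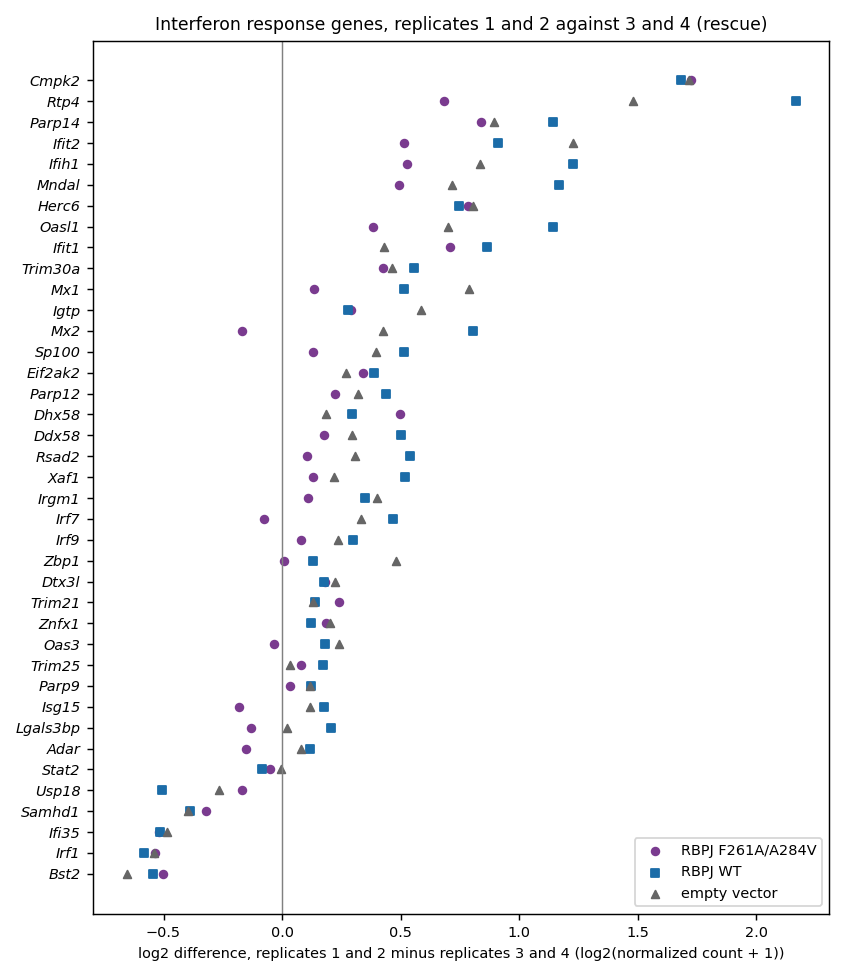
Log2 difference (x axis, log2(normalized count + 1)), replicates 1 and 2 minus replicates 3 and 4, of the 39 listed genes in each rescue group. Cmpk2 lies near 1.7 in all groups, RBPJ WT lies rightmost in Rtp4, Ifih1, Mndal and Oasl1, and Samhd1, Ifi35, Irf1 and Bst2 lie left of 0 in all groups.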

How the data were processed

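The deposited tables hold a signal per gene and library that the authors made from gene counts divided by 1 size factor per library. Dividing by the recovered step gave whole reads for 100% of values in each library, within a tolerance of 0.1 read. TopHat2 2.1.1, DESeq2 1.24.0 and the build mm9 were used, per the submitters' processing notes; the sources used here name no counter, annotation or strand setting. Genes with at least 10 in at least 3 (knockdown) or 4 (rescue) libraries were tested, 11586 and 11691. Log2(value + 1) was compared with limma 3.58.1 (R 4.3.3, limma-trend, 2-sided, Benjamini-Hochberg over all genes tested, threshold 0.05) with group as the only term, and 1 fit served all rescue libraries. Fold changes on this scale understate changes of low genes. Alternatives were a replicate block, the divide as a term, merged samples, each side alone, other pseudocounts (0.5 and 5), no filter, quantile scaling, and edgeR 4.0.16 and DESeq2 1.42.0 on the recovered reads. The limma fits with group only, the block or the divide term, and the edgeR fit, were tested on simulated counts. Those counts held no replicate effect, divide or near-identical pairs, so the check does not cover these features.

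Replicate numbers come from the labels. Deviations from the group means, compared between same-numbered libraries of different groups, had correlations of 0.240 to 0.539 (knockdown) and 0.550 to 0.815 (rescue). In the rescue, libraries of different groups on the same side of the divide correlated at 0.550 to 0.832 and across it at -0.761 to -0.491, so the numbers show no pairing beyond the divide. Merged pairs had a chi-square per degree of freedom under 1 (0.721 to 0.859), and other pairs of a group 1.06 to 17.0. The sources used here do not say whether merged pairs are 1 library.

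The 44 genes, their roles and the other lists were chosen with earlier results of these data known. Values in every library are given for 28 genes or as ranges: those called in any comparison by the fit without a block, with the block or to merged samples, the helicases and transcription factors, the 3 largest log2 fold changes of each comparison, the highest level of each role, and the 3 largest differences across the divide. Per-sample columns not mapped to a sample numbered 0. Genes that overlap or belong to families such as OAS, IFIT, MX and TRIM30 share an uncertain number of reads.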

Additional observations from a re-analysis of the deposited data

Results flagged for a closer look

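Among 84 groups of 4 rescue libraries examined for the 28 named genes, 1 held a library far from the others by Dixon's 95% criterion: RBPJ WT replicate 4 had 919.3 normalized counts of Znfx1, against 1052, 1061 and 1078 in the other RBPJ WT libraries, a gap of 0.838 of the range. Chance alone gives such a gap in about 1 in 20 groups of independent values from 1 normal population. The rescue groups, split by the divide and with near-identical pairs, do not meet that condition, so the rate here is not known.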

How the results depend on the processing

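None of the 28 named genes changed sign between the group-only fit and an alternative where either called it. Other directions turned: with replicates 1 and 2 alone, the median log2 fold change of the listed genes for F261A/A284V against empty vector was -0.048, against 0.021, with 15 of 39 above 0, against 24. For F261A/A284V against RBPJ WT, 84 genes of all were higher and 107 lower in replicates 1 and 2 alone, against 27 and 10. For L3MBTL3 shRNA against scramble, 5 listed genes and 3.32% of all genes tested were called. No filter gave 3 listed genes and 1.45% of all, quantile scaling 11 (10 higher, with Oasl1 lower) and 7.85%, the replicate block 19 and 22.2%, and DESeq2 10 and 5.65%. Leaving out 1 library gave 0 to 10 listed genes and 0% to 8.88% of all; with scramble replicate 1 left out, 6 were called. The replicate block without replicate 1, 2 or 3, added after seeing the data, gave 15, 16 and 23 listed genes and 13.2%, 19.9% and 27.4% of all. The median log2 fold change of the listed genes was 0.20 with quantile scaling, against 0.32. For RBPJ WT against empty vector (0 and 0.248%), the block gave 3 and 2.23%, the divide term 4 and 2.42%, merged samples 4 and 1.52%, replicates 1 and 2 alone 1 and 1.00%, replicates 3 and 4 alone 3 and 1.26%, no filter 0.146% and DESeq2 0.513% of all; leaving out 1 library gave 0.145% to 0.197%. For F261A/A284V against empty vector (0 and 0.0171%), no filter gave 0.0313% of all, quantile scaling 0.0257%, the block 0.650%, the divide term 1 and 0.693%, merged samples 0.0941%, replicates 1 and 2 alone 0.128%, replicates 3 and 4 alone 1.15% and DESeq2 0.0599%; leaving out 1 library gave 0.0171% to 0.0257%. For F261A/A284V against RBPJ WT (0 and 0.316%), the block gave 9 and 4.74%, the divide term 8 and 5.12%, merged samples 4 and 1.96%, replicates 1 and 2 alone 2 and 1.63%, replicates 3 and 4 alone 8 and 7.05%, no filter 0.178% and DESeq2 0.667% of all; leaving out 1 library gave 0.171% to 0.316%. The cause of these changes was not tested. The median difference across the divide was 0.17 with quantile scaling and 0.39 with equal read totals (0.13 over all genes), against 0.29, both added after seeing the data. For single genes, 2 results lost their call and 74 gained one under other settings. With a library left out, or with the block and all libraries of 1 replicate number left out, 21 lost their call and 42 gained one. Most of those 42 gains came from the fits with the block, and the 21 losses from fits with a single library left out.

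Depth limits the low genes most: Ifnb1, Ifit1 and Rtp4 rest on few reads per library. All fits but the one to merged samples treat the near-identical pairs as separate libraries, which understates the spread, and in the fits to replicates 1 and 2 or 3 and 4 alone at least 1 group is then a single sample. Empty vector replicates 3 and 4 had a chi-square per degree of freedom of 1.06, just above the cut of 1, and stayed separate. The merged fit may therefore understate the spread as well. A single hairpin was used, and the L3mbtl3 transcript does not separate the knockdown groups.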
